A study of Mus musculus with 4 samples.

Results

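Serine proteases, the serpins and other proteins that hold such proteases in check, and the receptors they act on were followed in colon tumours. The set was taken by gene symbol from a table of 14979 genes. It comprised the Prss, Tmprss, Klk, Htra, Serpin, Spint and Spink genes, without Spink1 and Spink4, together with St14, Hpn, Plau, Plat, Plaur, F2r, F2rl1, Wfdc2 and Slpi. In all, 49 genes met the rule, of which 22 encode proteases, 24 inhibitors or other serpins and 3 receptors. Tumours arose in AOM/DSS mice, in which the carcinogen azoxymethane and the colitis-inducing chemical dextran sulfate sodium together produce inflammation-driven colon cancer. The treated mice received an antibody against MAdCAM-1, an adhesion molecule on gut venules that captures lymphocytes, and the control mice received IgG. There were 2 mice per group, each giving 1 library, called MAdCAM1 1, MAdCAM1 2, IgG 1 and IgG 2. Strain, age, sex and antibody dose are not given in the sources used here, and how many tumours entered each library is also not given.

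Serine proteases cut proteins with an active-site serine, and most are made as inactive precursors that another protease must cleave. In the gut epithelium the membrane-bound proteases matriptase and prostasin act at cell junctions and on the epithelial sodium channel, and Kunitz inhibitors restrain them. Serpins trap their target protease by an irreversible change of shape, although some members, such as the collagen chaperone Serpinh1, inhibit nothing. Secreted proteases also signal to cells by cleaving protease-activated receptors. Plasminogen activators generate plasmin, which dissolves fibrin and opens matrix.

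Levels come from CAGE, in which each tag marks the capped 5′ end of an RNA, so that levels in CPM (tags scaled to library size with TMM factors) do not depend on gene length. The libraries held 14850923 to 16891234 tags, and the 49 genes took 0.445% and 0.489% of tags in the MAdCAM1 libraries and 0.406% and 0.358% in the IgG libraries. Log2 fold changes are MAdCAM1 over IgG, with SE from edgeR's quasi-likelihood test and p-values adjusted by Benjamini-Hochberg over 14331 tested genes. That test called 0 of these genes at an adjusted p of 0.05 (0%), and 0 of the 48 family genes that could be tested. Statements below therefore describe the value of each library, and p-values set differences against the spread between mice. Prss27 was too low to be tested.

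Both MAdCAM1 values exceeded both IgG values in 12 of the 48 tested family genes (25.0%, called higher in both below), beside 19.7% of all tested genes. Another 4 were lower in both (8.33%), beside 18.7% of all tested genes, and 32 overlapped between the groups. The median log2 fold change was 0.11 for the family and −0.0012 for all tested genes. With library size scaling, under which the median over all genes was −0.10, 10 family genes were higher in both and 5 lower in both, beside 13.6% and 28.6% of all genes. At an unadjusted p under 0.05 there were 6 family genes higher, beside 5.09% of all tested genes, and 0 lower, beside 1.82%. These were Klk1, Prss30, Slpi, Prss32, F2rl1 and Tmprss2. DESeq2 called the same 6 higher (1.54% of all genes higher, 0.147% lower), edgeR's exact test called 2 of them, Klk1 and Prss30 (1.06% higher, 0.0628% lower), and limma-voom called 0 (0%).

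**Figure D1:**
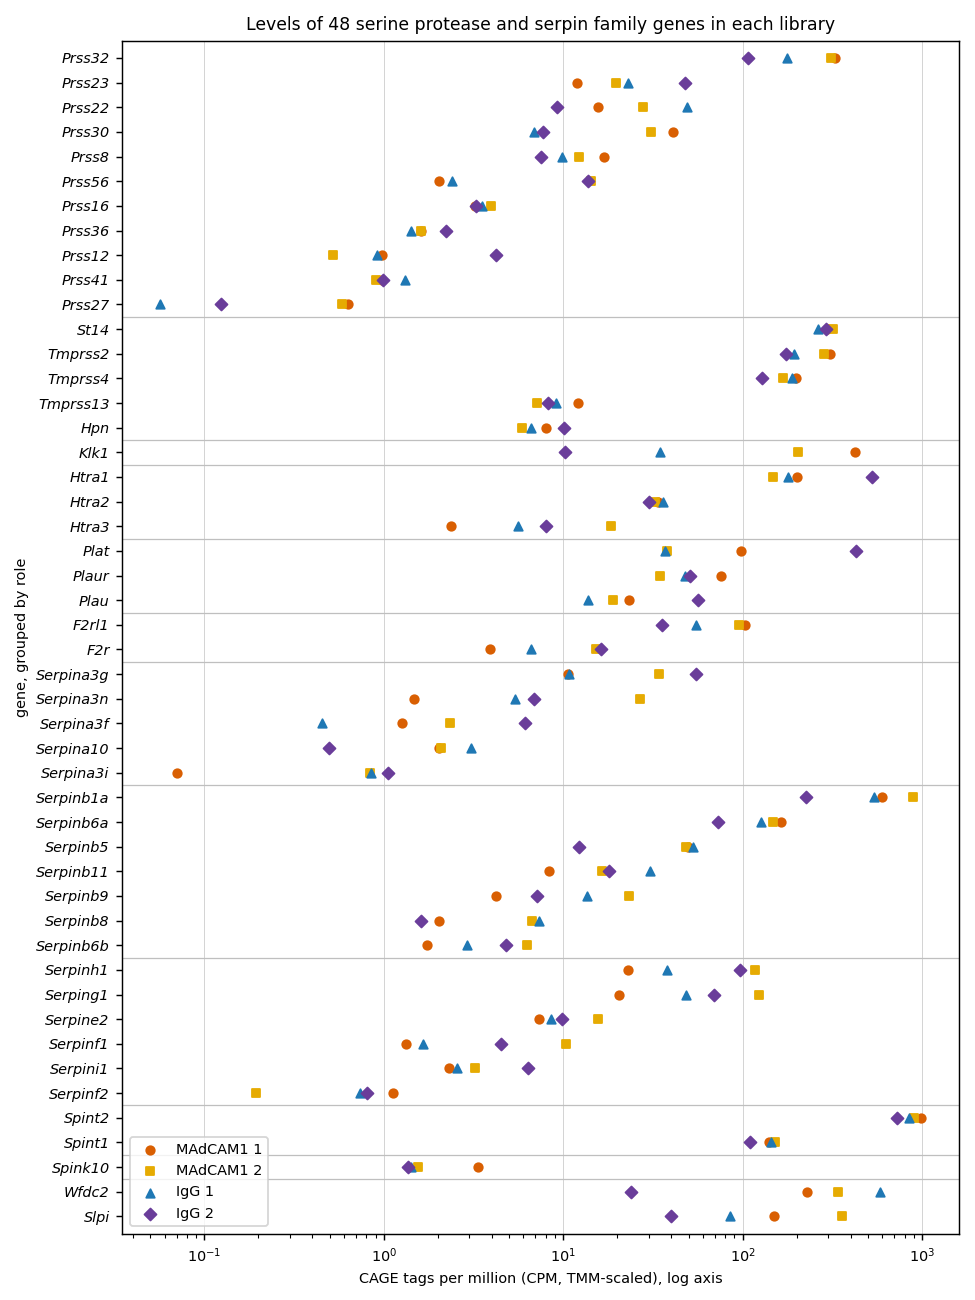
Level of 48 of the 49 genes in CPM (log axis) in the 4 libraries, 1 point per library, grouped by role and sorted by mean level. Klk1, Prss30 and Prss32 have both MAdCAM1 points to the right of both IgG points, whereas Plat, Wfdc2 and most serpins have overlapping groups.

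The 3 genes below had the highest log2 fold changes among the tested proteases, and their upstream sequences are shown because CAGE reads transcription at start sites. Each line gives the 250 bases before the start of the transcript tagged Ensembl canonical in GENCODE M39. Bases run 5′ to 3′ on the gene's strand, from GRCm39. These are chr17:24194216-24194465 (minus strand) for Prss30, chr17:24072244-24072493 (plus strand) for Prss32 and chr7:43874534-43874783 (plus strand) for Klk1. The Prss30 and Prss32 windows lie inside the annotated genes, which begin on their strands at 24203700 and 24062829. Other annotated starts of these genes therefore lie upstream of the windows. The annotated Klk1 gene begins at 43874725, within its window. Capitals mark matches to a CCAAT box (CCAAT) or GC box (GGGCGG) on either strand.
Prss30: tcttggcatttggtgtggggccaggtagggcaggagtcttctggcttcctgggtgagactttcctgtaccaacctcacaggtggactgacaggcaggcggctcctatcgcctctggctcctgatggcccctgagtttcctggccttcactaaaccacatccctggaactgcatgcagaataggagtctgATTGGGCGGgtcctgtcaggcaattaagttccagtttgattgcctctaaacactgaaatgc
Prss32: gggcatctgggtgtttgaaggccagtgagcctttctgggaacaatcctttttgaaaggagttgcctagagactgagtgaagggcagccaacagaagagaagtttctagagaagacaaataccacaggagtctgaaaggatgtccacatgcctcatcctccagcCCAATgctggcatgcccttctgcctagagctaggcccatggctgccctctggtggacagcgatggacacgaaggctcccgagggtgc
Klk1: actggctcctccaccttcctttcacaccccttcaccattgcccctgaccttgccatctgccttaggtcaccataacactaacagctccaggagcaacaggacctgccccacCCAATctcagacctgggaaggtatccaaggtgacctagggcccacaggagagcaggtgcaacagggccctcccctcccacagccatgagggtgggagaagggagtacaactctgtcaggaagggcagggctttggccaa
In Prss30 an inverted CCAAT box overlaps a GC box, 61 and 58 bases before the start. Klk1 and Prss32 hold a CCAAT box 139 and 87 bases before theirs. CCAAT occurred in 35.5% of 14287 upstream windows of this length and in 18 of 48 family windows, and GGGCGG in 46.8% and in 14 of 48. A TATA box (TATAAA, 8.72% of windows), an HNF4 motif (CAAAGNNCA, 4.93%), an AP-1 motif (TGANTCA, 4.82%) and a TCF/LEF motif (CTTTGAT, 2.59%) were searched on both strands too, and none of them matched in these 3 windows. In family genes they matched in 5, 2, 4 and 1 windows. The RefSeq promoters of Prss30 and Klk1 (GRCm38.p6) hold the last 100 bases shown, whereas that of Prss32 does not, and the gene-level table does not tell which start was used.

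Prss30, described in mouse as a distal intestinal serine protease, had 41.1 and 30.8 CPM in MAdCAM1 1 and MAdCAM1 2, against 6.83 and 7.73 CPM in IgG 1 and IgG 2. These rest on 587 and 475 tags against 120 and 125 tags. Both groups were tight and did not overlap, and the log2 fold change was 2.30 (SE 0.23, n = 2 per group, edgeR adjusted p = 0.640). DESeq2 gave an adjusted p of 3.5e-09 and the exact test 4.5e-06, both computed on the same counts. Leaving out each library gave log2 fold changes from 2.08 to 2.50.

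Prss30 stood apart from most of the other tested Prss genes. Prss27, too low to be tested, is not in this comparison and is given below. Among 10 tested Prss genes Prss30 had the second highest level in both MAdCAM1 libraries and the fifth highest in both IgG libraries. Its log2 level exceeded the median of the other 9 by 3.67 and 1.33 in the MAdCAM1 libraries and by 0.95 and 0.05 in the IgG libraries. That median of the 9 was the level of Prss16 in MAdCAM1 1 and IgG 1 and of Prss8 in MAdCAM1 2 and IgG 2. Log2 fold changes of those 9 ran from −1.76 to 1.18, with a median of −0.17. Of them 5 overlapped between the groups, 2 were higher in both and 2 were lower in both, shares near the 19.7% and 18.7% of all tested genes. Prss30 was singled out with its earlier result known, so that no test of this difference is given.

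Prss32, a tryptase-like gene, was the most abundant Prss gene, at 329 and 310.1 CPM in the MAdCAM1 libraries against 176 and 107 CPM in the IgG libraries. All values of the MAdCAM1 group exceeded those of the IgG group, at a log2 fold change of 1.18 (SE 0.28, edgeR adjusted p = 0.671, DESeq2 adjusted p = 0.0183). Prss8, which encodes prostasin, an anchored activator of the sodium channel, had 16.8 and 12.2 CPM in MAdCAM1 tumours and 9.79 and 7.48 CPM in IgG tumours. This was the only other tested Prss gene without overlap in that direction, with a log2 fold change of 0.75 (SE 0.29, edgeR adjusted p = 0.731). Prss23, a secreted protease, lay on the other side at 11.9 and 19.6 CPM in MAdCAM1 tumours against 22.9 and 47.4 CPM in IgG tumours. Its log2 fold change was −1.16 (SE 0.47, edgeR adjusted p = 0.731), which became −0.54 without IgG 2 and −1.60 without IgG 1. Prss41, first described in testis, was near 1 CPM in every library and also lower in both, at 14 and 14 tags in MAdCAM1 tumours against 23 and 16 tags in IgG tumours.

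The remaining Prss genes overlapped or were scarce. Prss22, a tryptase-like protease also named BSSP-4, had 15.6 and 27.7 CPM in MAdCAM1 tumours and 48.8 and 9.28 CPM in IgG tumours, so that the IgG libraries held both its highest and its lowest value. Prss56, a gene known from eye growth, had 2.03 and 14.3 CPM in MAdCAM1 tumours and 2.39 and 13.8 CPM in IgG tumours, high in replicate 2 of each group. Prss12, the neurotrypsin gene, stood at 0.980 and 0.518 CPM in MAdCAM1 tumours and 0.911 and 4.21 CPM in IgG tumours, and only IgG 2 was high. The thymus-associated Prss16 (3.22 to 3.95 CPM) and the polyserase gene Prss36 (1.42 to 2.23 CPM) varied little. Prss27, the marapsin gene, had 9 and 9 tags in MAdCAM1 tumours against 1 and 2 tags in IgG tumours. Summed and scaled, that is a ratio of 6.81 with an exact 95% interval of 1.99 to 36.1, which covers counting error only.

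Of the 11 Prss genes, 5 lie together on chromosome 17. In order along GRCm39 they are Prss41 (24055759 to 24063170), Prss32 (24062829 to 24078753), Prss30 (24191100 to 24203700), Prss22 (24212508 to 24217074) and Prss27 (24256666 to 24264969). Neighbours did not all share a pattern. Prss32, Prss30 and the scarce Prss27 were higher in both MAdCAM1 libraries, and Prss22 overlapped. Prss41 was lower in both only by a small gap, between 0.980 CPM in MAdCAM1 1 and 0.990 CPM in IgG 2. Prss30 and Prss22 are adjacent and on the same strand, yet Prss30 separated the groups and Prss22 did not. The ratio of Prss30 to Prss22 within a library was 2.63 and 1.11 in MAdCAM1 tumours against 0.140 and 0.833 in IgG tumours. Prss41 and Prss32 overlap by a short stretch on opposite strands, and whether counting used strand is not given in the sources used here, so their tags may be partly shared. Within 500 kb of Prss30, 28 tested genes outside the family included 6 higher in both and 5 lower in both, shares near the 19.7% and 18.7% of all tested genes, and their median log2 fold change was 0.02.

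**Figure D2:**
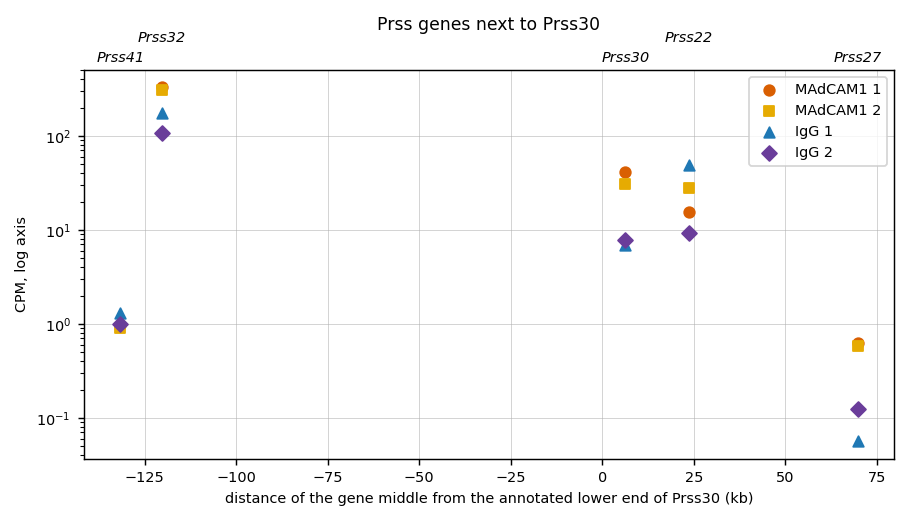
CPM (log axis) of the 5 Prss genes of the chromosome 17 group, plotted by the distance of each gene's middle from the lower annotated end of Prss30 in kb, 1 point per library. MAdCAM1 points lie above IgG points for Prss32, Prss30 and Prss27, overlap with them for Prss22 and lie just below them for Prss41.

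Among the membrane-spanning proteases Tmprss2, St14 and Tmprss4 were abundant, and Tmprss2 had the widest separation of the groups. Tmprss2, an epithelial protease that also primes viral spike proteins, had 307 and 286 CPM in MAdCAM1 tumours against 193 and 173 CPM in IgG tumours. Both MAdCAM1 values were higher, at a log2 fold change of 0.69 (SE 0.15, edgeR adjusted p = 0.665, DESeq2 adjusted p = 0.0144). St14, which encodes matriptase, had 294 and 317 CPM in MAdCAM1 tumours and 262 and 290 CPM in IgG tumours. Its groups did not overlap, except that they did with library size scaling, and differed by a log2 fold change of 0.15 (SE 0.15, edgeR adjusted p = 0.879). Tmprss4, a protease known from epithelial tumours, overlapped at 199 and 167 CPM in MAdCAM1 tumours and 188 and 128 CPM in IgG tumours. Tmprss13 (7.12 to 12.1 CPM) and the hepsin gene Hpn (5.89 to 10.1 CPM) were low and overlapped.

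The Kunitz inhibitors of matriptase and prostasin had small fold changes, as St14 did. Spint2, the most abundant gene of the family, had 990.1 and 897 CPM in MAdCAM1 tumours and 840.0 and 720.0 CPM in IgG tumours, a log2 fold change of 0.27 (SE 0.17, edgeR adjusted p = 0.796), and its groups overlapped with library size scaling. Spint1 overlapped at 140.2 and 150.5 CPM in MAdCAM1 tumours and 144 and 109.9 CPM in IgG tumours. Per St14 tag, Spint2 gave 3.37 and 2.83 tags in MAdCAM1 tumours against 3.21 and 2.48 in IgG tumours, and Spint1 gave 0.477 and 0.475 against 0.550 and 0.379. Inhibitor and protease thus kept overlapping ratios in the groups. These ratios compare libraries by description only.

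Klk1, tissue kallikrein, which frees kinins from kininogen, had the largest log2 fold change of the 48 tested genes. It stood at 425 and 203 CPM in MAdCAM1 tumours against 34.5 and 10.3 CPM in IgG tumours, or 6067 and 3128 tags against 607 and 166 tags. Even the lower MAdCAM1 value was several times the higher IgG value, and the log2 fold change was 3.81 (SE 0.78, edgeR adjusted p = 0.665). It was 3.17 without IgG 2 or MAdCAM1 1 and 4.91 without IgG 1. The exact test gave an adjusted p of 6.7e-04 and DESeq2 7.6e-07. Klk1 (chromosome 7, 43874725 to 43879048) is the single Klk gene that met the rule in the table, and it has close mouse relatives of the Klk1b group, so tags may have been drawn from near-identical copies.

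Beside these genes, markers of differentiated epithelium were also higher in the MAdCAM1 libraries. All 8 goblet cell markers were higher in both MAdCAM1 libraries. Over all tested genes 19.7% were higher in both and 18.7% lower in both. Goblet marker levels summed to 10277 and 7212 CPM in the MAdCAM1 libraries against 2661 and 1158 CPM in the IgG libraries. Of 8 colonocyte markers 6 were higher in both and 0 lower in both (942 and 664 CPM against 338 and 177 CPM), and of 7 general epithelial markers 6 and 0 (10560.0 and 9106 CPM against 6716 and 5998 CPM). Their part in the values of Klk1, Prss30, Prss32, Tmprss2 and F2rl1 was not tested. In bulk tumour RNA, fewer cells of a type and less RNA per cell cannot be told apart. Beside the tryptase-like genes, 8 mast cell markers summed to 184 and 129 CPM in MAdCAM1 tumours and 160.4 and 98.5 CPM in IgG tumours, with 1 higher in both and 1 lower in both. None of 7 pancreatic acinar markers is listed in the table.

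**Figure D3:**
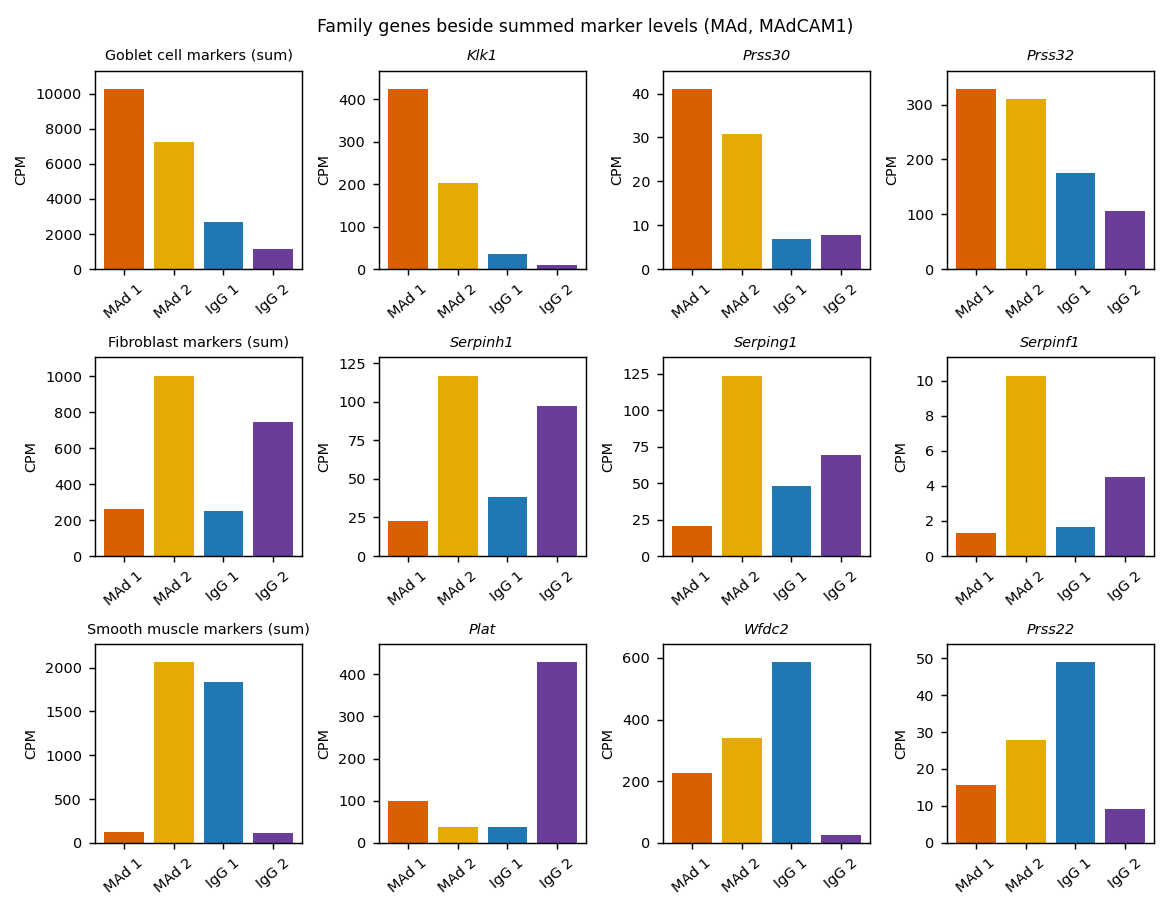
Bars from 0 give CPM in each library, for summed marker lists of goblet cells, fibroblasts and smooth muscle and for 3 family genes beside each (MAd stands for MAdCAM1). Klk1, Prss30 and Prss32 are higher in both MAdCAM1 libraries as the summed goblet markers are. Summed colonocyte and general epithelial markers, not drawn, were also higher in both MAdCAM1 libraries. Serpinh1, Serping1 and Serpinf1 are highest in MAdCAM1 2 and next in IgG 2 as the summed fibroblast markers are. The single fibroblast markers Lum and Dpt had IgG 1 next instead. Summed endothelial, neutrophil and macrophage markers, not drawn, were likewise highest in MAdCAM1 2 and next in IgG 2. Among neutrophil markers only S100a9 had this order, at 509 CPM in MAdCAM1 2. S100a8, Csf3r, Cxcr2, Retnlg, Mmp8 and Ngp were highest in IgG 2. So were the macrophage markers Adgre1 and Cd68 and the endothelial marker Cdh5. Plat, Wfdc2 and Prss22 match no list shown in all 4 libraries.

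HtrA proteases, which act in matrix and in mitochondria, did not separate the groups. Htra1, a secreted protease of matrix proteins, had 200.1 and 147 CPM in MAdCAM1 tumours and 180.0 and 526 CPM in IgG tumours. IgG 2 alone was high, and the log2 fold change of −1.02 (SE 0.57, edgeR adjusted p = 0.775) rests on it. Htra2, the mitochondrial member, was the steadiest of the 3, at 30.1 to 36.1 CPM. Htra3 was highest in MAdCAM1 2, at 2.38 and 18.4 CPM in MAdCAM1 tumours against 5.58 and 8.04 CPM in IgG tumours.

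Among the plasminogen activation genes IgG 2 often stood apart. Plat, tissue plasminogen activator, had 98.3 and 37.9 CPM in MAdCAM1 tumours against 37.1 and 428 CPM in IgG tumours. The IgG pair thus spanned more than the MAdCAM1 pair, and the log2 fold change of −1.77 (SE 1.24, edgeR adjusted p = 0.835) became 0.86 without IgG 2. Plau, the urokinase gene, had 23.1 and 18.8 CPM in MAdCAM1 tumours and 13.8 and 56.5 CPM in IgG tumours, again with IgG 2 highest, and its log2 fold change of −0.74 (SE 0.71) became 0.60 without that library. Plaur, the urokinase receptor, overlapped at 75.6 and 34.4 CPM in MAdCAM1 tumours and 47.6 and 50.6 CPM in IgG tumours. IgG 2 was therefore the highest library for both Plat and Plau, and MAdCAM1 1 for Plaur.

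The protease-activated receptors are taken next. F2rl1 encodes PAR2, which trypsin-like proteases activate, and had 103 and 94.9 CPM in MAdCAM1 tumours against 54.7 and 35.7 CPM in IgG tumours. Its groups did not overlap, at a log2 fold change of 1.13 (SE 0.25, edgeR adjusted p = 0.665, DESeq2 adjusted p = 0.022, exact test adjusted p = 0.0557). F2r, which encodes the thrombin receptor PAR1, had 3.92 and 15.2 CPM in MAdCAM1 tumours and 6.60 and 16.2 CPM in IgG tumours, and replicate 2 of each group was high. The ratio of F2rl1 to F2r ran from 6.24 to 26.2 in MAdCAM1 tumours and from 2.20 to 8.28 in IgG tumours, which overlap. The genes lie next to each other on chromosome 13 (F2rl1 at 95648221 to 95661800, F2r at 95737382 to 95755177).

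**Figure D4:**
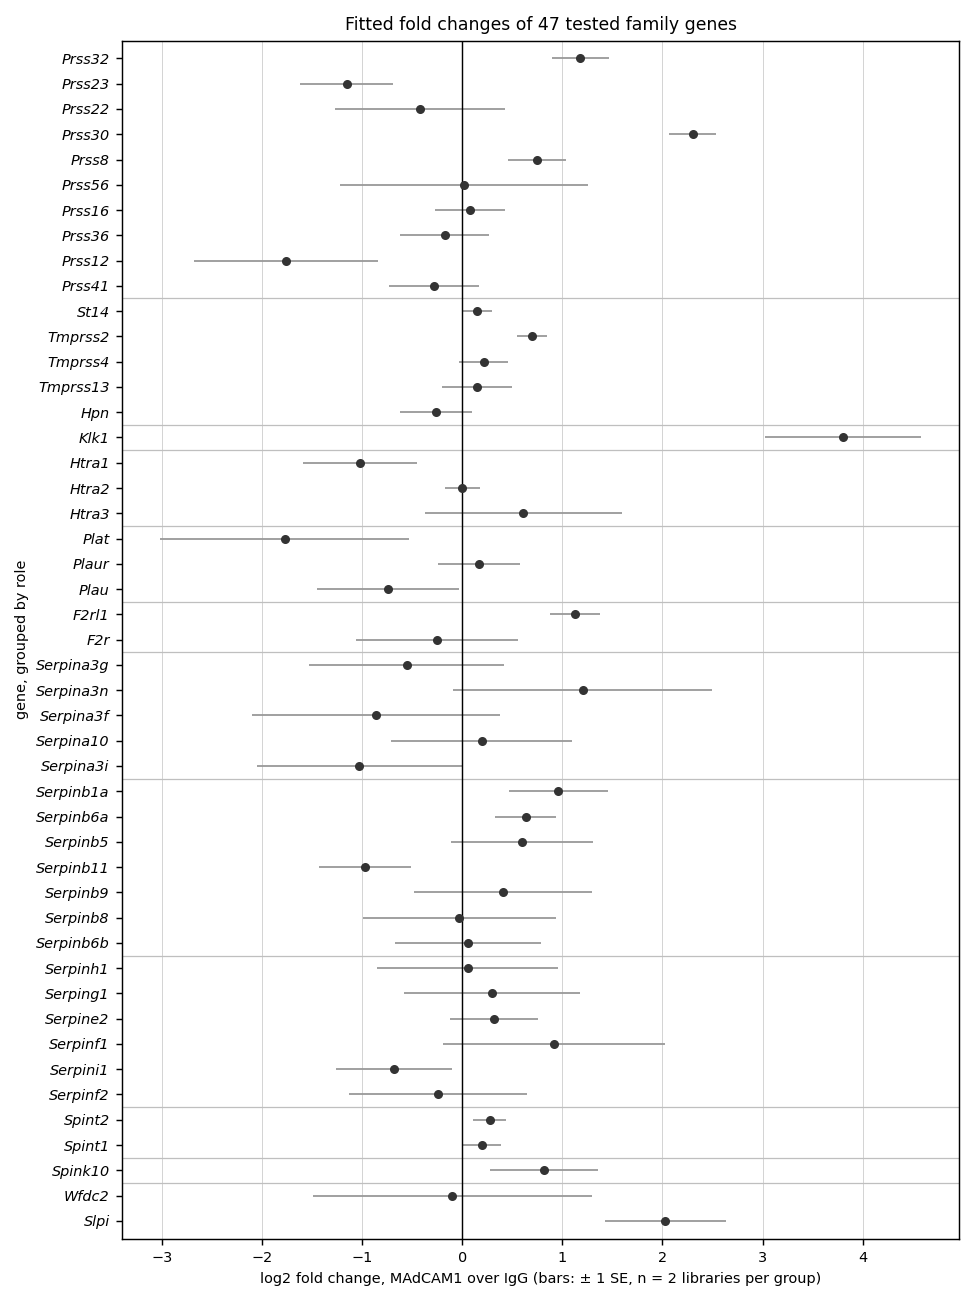
Fitted log2 fold change, MAdCAM1 over IgG, of 47 of the 48 tested genes by role, with bars of 1 SE on either side (n = 2 libraries per group). Klk1 at 3.81, Prss30 at 2.30 and Slpi at 2.03 lie farthest to the right, and none of those shown passed edgeR's test after adjustment.

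Of 19 tested serpin genes 15 overlapped, 2 were higher in both and 2 were lower in both, beside 19.7% higher and 18.7% lower of all tested genes. Their median log2 fold change was 0.06. Clade B serpins act mainly inside cells, and the most abundant serpins here, Serpinb1a and Serpinb6a, belong to that clade. Serpinb1a, an inhibitor of neutrophil elastase and cathepsin G, had 595 and 889 CPM in MAdCAM1 tumours against 538 and 225 CPM in IgG tumours (log2 fold change 0.96, SE 0.50, edgeR adjusted p = 0.763). Serpinb6a, which also inhibits cathepsin G, had 164 and 147 CPM against 127 and 73.2 CPM in the same order (log2 fold change 0.63, SE 0.31). For both genes the MAdCAM1 group was higher without overlap, yet IgG 1 lay close to it and IgG 2 apart, and without IgG 2 the log2 fold changes became 0.46 for Serpinb1a and 0.29 for Serpinb6a.

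Other clade B genes went different ways. Serpinb11 was lower in both MAdCAM1 libraries, at 8.33 and 16.4 CPM against 30.5 and 18.0 CPM in IgG tumours (log2 fold change −0.97, SE 0.46, edgeR adjusted p = 0.760, and −0.55 without IgG 1). Serpinb5, the maspin gene, had 49.8 and 48.6 CPM in MAdCAM1 tumours and 52.7 and 12.3 CPM in IgG tumours, and IgG 2 alone was low. Serpinb9, the granzyme B inhibitor, overlapped at 4.20 and 23.2 CPM in MAdCAM1 tumours and 13.5 and 7.11 CPM in IgG tumours. Serpinb8 (1.61 to 7.28 CPM) and Serpinb6b (1.75 to 6.28 CPM) were low and overlapped. Serpinb6a and Serpinb6b are near relatives, so tags between them may be uncertain.

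Most of the clade A genes listed are mouse Serpina3 copies, and their tags may likewise be split between paralogues. Serpina3g, an inhibitor of cathepsins in immune cells, had 10.6 and 34.3 CPM in MAdCAM1 tumours and 10.8 and 55.1 CPM in IgG tumours, high in replicate 2 of each group. Serpina3n, an inhibitor of granzyme B and elastase, had 1.47 and 26.7 CPM in MAdCAM1 tumours and 5.41 and 6.87 CPM in IgG tumours. The MAdCAM1 pair held its lowest and its highest value, and the log2 fold change of 1.20 (SE 1.29) became −2.05 without MAdCAM1 2. Serpina3f (0.455 to 6.12 CPM) and Serpina10, an inhibitor of factor Xa (0.495 to 3.07 CPM), overlapped. Serpina3i had 1 and 13 tags in MAdCAM1 tumours against 15 and 17 tags in IgG tumours.

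Serpins of matrix and plasma overlapped between the antibody groups and differed widely between libraries of a group. Serpinh1, the collagen chaperone, had 23.0 and 117 CPM in MAdCAM1 tumours and 38.0 and 97.0 CPM in IgG tumours. Serping1, the inhibitor of complement C1, had 20.4 and 124 CPM in MAdCAM1 tumours and 48.1 and 69.4 CPM in IgG tumours. Serpinf1, the antiangiogenic factor PEDF, had 1.33 and 10.3 CPM in MAdCAM1 tumours and 1.65 and 4.51 CPM in IgG tumours. In each case MAdCAM1 2 was highest, IgG 2 next and MAdCAM1 1 lowest. Serpinf1 shares its tag counts in all libraries with the overlapping gene Gm12336, so these tags may belong to either.

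Summed levels of 7 fibroblast markers were 263 and 1004 CPM in MAdCAM1 tumours and 250.2 and 744 CPM in IgG tumours, and those of 5 listed macrophage markers were 128 and 493 CPM against 142 and 484 CPM. Summed smooth muscle markers were 119 and 2060 CPM in MAdCAM1 tumours and 1837 and 112 CPM in IgG tumours. The 5 listed endothelial markers summed to 14.6 and 57.0 CPM in MAdCAM1 tumours and 30.1 and 45.1 CPM in IgG tumours. The summed endothelial, macrophage and neutrophil markers (the last given below) were lowest in MAdCAM1 1, as these serpins were. The summed fibroblast markers were lowest in IgG 1. Of the fibroblast, smooth muscle, endothelial and macrophage markers tested, 0 were higher or lower in both MAdCAM1 libraries. The 5 listed B and plasma cell markers summed to 47.5 and 534 CPM in MAdCAM1 tumours and 20.2 and 40.5 CPM in IgG tumours. Of these 5, 3 were higher in both and 0 lower in both. Over all tested genes 19.7% were higher in both and 18.7% lower in both. The part of these cells in the serpin values was not tested. Without MAdCAM1 2 the log2 fold changes became −1.56 for Serpinh1 (0.05 with it), −1.53 for Serping1 (0.30 with it) and −1.20 for Serpinf1 (0.92 with it). Serpine2, a thrombin and urokinase inhibitor, had 7.28 and 15.7 CPM in MAdCAM1 tumours and 8.54 and 9.90 CPM in IgG tumours. The neuroserpin gene Serpini1 (2.31 to 6.37 CPM) and the antiplasmin gene Serpinf2 (0.194 to 1.12 CPM) were low and overlapped.

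The small secreted inhibitors Slpi and Wfdc2 varied widely between single libraries. Slpi, which inhibits neutrophil elastase on mucosal surfaces, had 149.6 and 357 CPM in MAdCAM1 tumours against 84.5 and 39.7 CPM in IgG tumours. Its groups did not overlap, at a log2 fold change of 2.03 (SE 0.60, edgeR adjusted p = 0.691, DESeq2 adjusted p = 0.0183, exact test adjusted p = 0.0935). Leaving out each library gave log2 fold changes from 1.27 (without MAdCAM1 2) to 2.66 (without IgG 1). Wfdc2, a WAP-domain protein of epithelial secretions, had 228 and 342 CPM in MAdCAM1 tumours and 586 and 24.0 CPM in IgG tumours, so that 1 IgG library was highest and the other lowest. Its log2 fold change of −0.10 (SE 1.39) became 3.56 without IgG 1 (edgeR adjusted p = 0.247). Beside Slpi and Serpinb1a, 8 neutrophil markers summed to 334 and 940.3 CPM in MAdCAM1 tumours and 366 and 622 CPM in IgG tumours. Of the 7 tested, 1 was higher in both and 3 lower in both, beside 19.7% and 18.7% of all tested genes. Beside Wfdc2 and Serpinb5, the 3 squamous keratinocyte markers listed of 7 (Krt4, Krt13, Sprr1a) summed to 23.7 and 157 CPM against 118 and 12.7 CPM, and Krt5, Krt14, Trp63 and Ivl are not listed. The part of these cells was not tested. Spink10, the 1 Kazal gene that met the rule, had 48 and 24 tags in MAdCAM1 tumours against 25 and 22 tags in IgG tumours.

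Summed over roles, proteases reached 2027 and 1662 CPM in MAdCAM1 tumours and 1239 and 1873 CPM in IgG tumours. The inhibitors and other serpins reached 2414 and 3229 CPM in MAdCAM1 tumours and 2551 and 1508 CPM in IgG tumours, and both sums overlapped. Prss genes alone did not overlap, at 424 and 422 CPM in MAdCAM1 tumours against 274 and 203 CPM in IgG tumours, most of it from Prss32. Of the 48 tested genes, 13 were highest in MAdCAM1 1, 14 in MAdCAM1 2, 8 in IgG 1 and 13 in IgG 2. These are 27.1%, 29.2%, 16.7% and 27.1%, beside 24.4%, 24.2%, 22.2% and 29.3% of all tested genes in the same order.

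Substrates, receptors and partners of these proteases were counted from a list of 52 genes, of which 30 were tested. Of these, 12 were higher in both and 3 lower in both, beside 19.7% and 18.7% of all tested genes, and 0 passed the adjusted quasi-likelihood test. Their median log2 fold change was 0.35, beside −0.0012 over all tested genes. Hgfac, a serine protease that activates hepatocyte growth factor, had 93.5 and 75.0 CPM in MAdCAM1 tumours against 39.3 and 33.3 CPM in IgG tumours (log2 fold change 1.22, SE 0.19, edgeR adjusted p = 0.640). Mst1r, the receptor of the related macrophage-stimulating protein, had 17.3 and 18.8 CPM in MAdCAM1 tumours and 11.8 and 7.55 CPM in IgG tumours. Epcam and Cldn7, junction proteins that matriptase controls and that are also among the general epithelial markers, were higher in both as well, Cldn7 at 1933 and 1746 CPM in MAdCAM1 tumours against 1117 and 1090.2 CPM in IgG tumours. Sodium channel subunits Scnn1a and Scnn1b, targets of prostasin, were higher in both (Scnn1a not with library size scaling), with Scnn1a at 49.9 and 45.6 CPM in MAdCAM1 tumours against 43.0 and 12.1 CPM in IgG tumours.

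Among clotting genes F3, which encodes tissue factor, had 207 and 95.8 CPM in MAdCAM1 tumours and 55.2 and 86.5 CPM in IgG tumours. Procr, the receptor of protein C, was lower in both at 4.41 and 11.8 CPM against 16.8 and 16.0 CPM in IgG tumours. Of other intestinal serine proteases, Cela1, an elastase, had 153 and 121 CPM in MAdCAM1 tumours and 76.7 and 91.2 CPM in IgG tumours. The brush border peptidase gene Dpp4 had 30.5 and 17.2 CPM in MAdCAM1 tumours against 8.54 and 11.6 CPM in IgG tumours. Furin, a convertase that activates many precursors, was lower in both at 74.4 and 82.2 CPM against 110.1 and 96.0 CPM in IgG tumours, as was Prep at 86.0 and 63.5 CPM against 89.7 and 123 CPM. The remaining genes higher in both were Pcsk7, S100a10 and Vldlr, with log2 fold changes of 0.28, 0.60 and 0.53. None of the partner genes passed the adjusted edgeR test. DESeq2 called 3 of them higher, Hgfac, Epcam and Cldn7, beside 1.54% of all genes higher and 0.147% lower. The exact test called 1 higher, Hgfac, beside 1.06% of all genes higher and 0.0628% lower.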

How the data were processed

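CAGE tags of 75 nt came from colon tumour RNA of 4 mice. Per the labels' protocols, mapping by the authors used GRCm39, first with BWA 0.7.17 and then, for what was left, with HISAT2 2.0.5. RECLU grouped tags into clusters, and those under 0.1 CPM, over 200 bp or of poor reproducibility between replicates were dropped, with overlaps taken by bedtools 2.12.0. How clusters became genes, and whether strand was used, is not given in the sources used here. Low or broad promoters may therefore be missing. Values in the deposited table are raw counts of tags for each gene. No column was left out.

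Here genes were filtered with filterByExpr, scaled by TMM (factors 0.962 and 0.972 for MAdCAM1, 1.04 and 1.03 for IgG) and compared, MAdCAM1 minus IgG, with the robust quasi-likelihood test of edgeR 4.0.16 under R 4.3.3 (adjusted p threshold 0.05, common coefficient of variation 0.322). SE is the log2 fold change divided by the root of the F statistic. DESeq2 1.42.0, limma-voom (limma 3.58.1) and edgeR's exact test were alternatives, and the tests were tested on simulated data. Serpinf1 is among 885 genes (20 tags or more) whose counts equal those of another gene throughout. Positions came from GENCODE M39 on GRCm39, which matched 49 of 49 family genes. No block was used, because same-numbered libraries are not from the same mouse. Members, roles and lists were chosen with earlier results of these data known. All tested Prss, Tmprss, Spint and Htra genes, the 9 genes of the rule that have no family prefix, and the 4 most abundant and 4 lowest-p members of each other role were named, with partner genes of mean CPM at least 1 that did not overlap. Of the family, 1 gene stays in the counts and is not reported here singly. Replicates are separate mice, and tag totals of 14850923 to 16891234 make 1 tag equal to 0.0592 to 0.0673 CPM before TMM scaling.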

Additional observations from a re-analysis of the deposited data

How the results depend on the processing

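Prss30 kept its direction in every alternative run, at log2 fold changes of 2.08 to 2.50 without 1 library and 2.29 with the replicate block (edgeR adjusted p = 0.477), and was called by DESeq2 (2.30) and the exact test (2.30) and by no other alternative. DESeq2 called 242 genes over the table and 6 of the family, and the exact test 161 and 2, while the remaining alternatives, the replicate block included, called 0. The replicate numbers share no mouse, and deviations of same-numbered libraries correlated at −0.16 across genes. Family genes higher in both MAdCAM1 libraries numbered 16 to 23 without 1 library and those lower in both 10 to 17, since fewer values must separate. The shares of all tested genes in those fits are not given here. The shares given above use all 4 libraries and cannot be set beside these counts, which are no result about the family. The family median was −0.20 to 0.25 in those fits, the lowest without MAdCAM1 2. It was 0.01 to 0.15 in the other alternatives, at the lowest with library size scaling.

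Among uncalled genes with small or library-dependent differences, some log2 fold changes turned sign, and the cause was not tested. They were −0.010 for Htra2, −0.0079 for Prss56 with upper quartile scaling. They were −0.096 for Htra2, −0.021 for Prss16, −0.068 for Prss56, −0.032 for Serpinb6b, −0.035 for Serpinh1 with library size scaling. They were −0.081 for Prss56, −0.15 for Serpinb6b, 0.093 for Serpinb8, −0.19 for Serping1, −0.22 for Serpinh1, 1.22 for Wfdc2 with the replicate number as a block. They were −0.00012 for Htra2 in DESeq2. They were −0.0039 for Prss56, 0.080 for Serpina3f, −0.13 for Serpinb6b, 0.096 for Serpinb8, −0.19 for Serping1, −0.21 for Serpinh1, 1.23 for Wfdc2 in limma-voom. Without 1 library the ranges of those that turned were Prss22 −1.17 to 1.21, Prss56 −1.99 to 1.78, Serpinb6b −1.14 to 0.70, Serpinb8 −1.13 to 1.43, Serpinh1 −1.56 to 0.88, Wfdc2 −1.04 to 3.56, F2r −1.54 to 0.54, Hpn −0.56 to 0.070, Htra2 −0.13 to 0.12, Plat −2.67 to 0.86, Plau −1.45 to 0.60, Prss36 −0.48 to 0.18, Serpina10 −0.59 to 2.02, Serpina3f −1.77 to 1.96, Serpina3g −1.64 to 1.05, Serpinb5 −0.11 to 1.98, Serpini1 −1.21 to 0.11, Tmprss4 −0.043 to 0.50, Plaur −0.51 to 0.62, Tmprss13 −0.29 to 0.48, Htra3 −1.51 to 1.43, Prss16 −0.080 to 0.21, Serpina3n −2.05 to 2.12, Serpinb9 −1.30 to 1.16, Serpine2 −0.34 to 0.76, Serpinf1 −1.20 to 1.82, Serpinf2 −1.95 to 0.53, Serping1 −1.53 to 1.08. Each group holds 2 libraries, which limits every comparison, and genes under about 1 CPM rest on few tags.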
